A study of Mus musculus with 2 samples.

Results

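Neutrophils and neutrophil precursors of the mouse incisor were chosen by measured values, as the cell barcodes whose counts carried both the calprotectin pair S100a8 and S100a9 and the granule genes Ngp, Camp, Retnlg and Ly6g. A member had at least 500 detected genes, at most 20% mitochondrial and at most 5% haemoglobin counts. It had at least 5 unique molecular identifiers (UMIs, single counted transcript molecules) over the 4 granule genes and at least 20 over S100a8 and S100a9. It also had at most 2 UMIs of C1qa, C1qb and C1qc, no Cd79a, no Cd3d, Cd3e or Cd3g, and at most 1 of Epcam and Cdh1. The rule found 101 of 4543 kept barcodes, 2.22% (95% Clopper-Pearson interval 1.81 to 2.69), with 412156 of 35011415 UMIs. The cells came from untreated C57BL/6 mice of 4 weeks, whose lower incisors were freed of bone, and pulp was digested with collagenase together with the dental epithelium. Counts came from a droplet assay that reads the 3′ end of each transcript, in 1 matrix that stands for 2 titles that differ only in the lane. The matrix was treated as 1 sample and the number of animals is not given, so differences between groups of cells were not tested over replicates. Intervals are 95% and cover counting error only.

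Neutrophils are short-lived phagocytes that mature in bone marrow and store their weapons in granules made one after another. Promyelocytes fill primary granules with the proteases Elane and Prtn3 and with the peroxidase Mpo. Myelocytes and metamyelocytes fill specific granules with Ltf, Lcn2, Camp and Ngp, and later cells make the gelatinase granules that hold Mmp9. Circulating neutrophils have largely stopped making granule proteins and carry Cxcr2, a receptor for neutrophil-attracting chemokines, and Csf3r, the receptor for the growth factor G-CSF. S100a8 and S100a9 form calprotectin, an abundant metal-binding protein of the cytosol.

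The rule genes describe the members and are not a finding. S100a8 and S100a9 together made up a median of 22.0% of a member's UMIs, with a range of 0.205% to 44.1%. The median ratio of S100a8 to S100a9 UMIs was 0.915. Members held a median of 2384 UMIs (1076 to 31727) and 719 genes, against a median of 5889.5 UMIs in the 4442 other kept barcodes. Just inside the granule minimum, 12 barcodes had 5 to 9 granule UMIs (median S100a8 plus S100a9 count 186), and just outside it 11 had 1 to 4 (median 113). Just inside the calprotectin minimum, 7 barcodes had up to 100 UMIs of S100a8 and S100a9 (57 to 92), and just outside it 3 had 14 to 19.

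Markers of other cells were low in the members, with 4 exceptions. The rule itself set Cd79a and the Cd3 genes to 0 and held the C1q genes to at most 2 UMIs, so those genes check nothing. Among markers the rule did not use, Ms4a1 of B cells, Mrc1 of macrophages, and Siglecf, Ccr3, Epx and Prg2 of eosinophils were at 0 over all members. Of 7 macrophage markers 5 were detected, with 66 UMIs in all (160 CPM, counts scaled in the usual way to the summed UMIs of the group) and at most 0.492% of a barcode. All 5 monocyte markers were detected, with 170 UMIs (412 CPM), against 2632 CPM in the monocytes described below, and 138 of the 170 were Ly6c2. Without the mixed barcodes described next, monocyte markers stood at 551 CPM. Of the 5 mast cell and basophil markers, 4 were at 0 and the list summed to 2 UMIs. However, 4 members had more than 1% of their UMIs from markers of mesenchyme, epithelium, endothelium, macrophages, dendritic cells or lymphocytes. Their shares were 41.0%, 27.9%, 5.19% and 4.16%, and the next member had 0.872%. A Scrublet doublet score above 0.15 marked 8 members, 1 of which was among those 4. The rest of the 8 were marked by the score alone and had at most 0.872% of their UMIs from those markers. These 11 mixed barcodes had a median of 8027 UMIs, and 1 of them alone held 10174 of the 12009 Amelx UMIs of the members, an enamel protein gene of ameloblasts. Without them, the epithelial list summed to 192 UMIs (15224 with them) and the mesenchymal list to 77 UMIs (1592 with them). Several values below are also given without the mixed barcodes.

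The members spread along a maturation order set by 3 of the rule genes. Each member was placed by the share of Ngp and Camp UMIs in the sum of Ngp, Camp and Retnlg, Retnlg being a resistin-like gene of later cells. The Camp-Ngp range, with a share of at least 0.8, held 20 members (19.8%, 12.5 to 28.9). The middle range held 12 (11.9%, 6.29 to 19.8), and the Retnlg range, with a share of at most 0.2, held 69 (68.3%, 58.3 to 77.2). These are ranges of a score and not cell types, and 8 members lay near a limit, 1 at the upper and 7 at the lower one. Depth differed between them, with a median of 6380 UMIs and 1750.5 genes in the Camp-Ngp range, 3046.5 UMIs and 821 genes in the middle range, and 2050 UMIs and 662 genes in the Retnlg range. Of the 11 mixed barcodes, 3 lay in the Camp-Ngp range, 1 in the middle and 7 in the Retnlg range, where they held 40.8% of the UMIs.

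**Figure D1:**
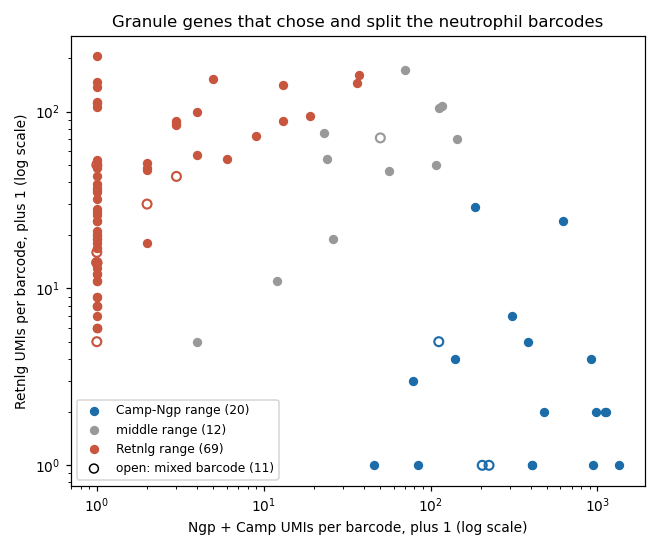
Ngp plus Camp UMIs (x axis) against Retnlg UMIs (y axis) of each of the 101 members, both plus 1 and on log scales; colour gives the range and open circles mark the 11 mixed barcodes. The 3 genes chose the ranges, and the 12 members of the middle range carried UMIs of both kinds.

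Within the pair, Ngp and Camp did not keep one ratio over the ranges. Ngp, a cystatin-like granule protein, made up 46.9% (45.9 to 47.9) of the Ngp and Camp UMIs in the Camp-Ngp range. It made up 77.9% (74.7 to 80.8) in the middle range and 90.6% (84.7 to 94.8) in the Retnlg range, where 135 Ngp and 14 Camp UMIs were left. The range rule used only the sum of both genes, which are rule genes, so these shares are a description. The Ngp UMIs of the Retnlg range came from 17 of 69 cells and the Camp UMIs from 6. In the barcodes set aside for Cd3 UMIs, described below, Ngp made up 49.6%, 64.3% and 78.3% over the Camp-Ngp, middle and Retnlg ranges. Camp encodes the cathelicidin antimicrobial peptide, and its UMIs had a median of 212.5 per cell in the Camp-Ngp range, 8.5 in the middle range and 0 in the Retnlg range. For Ngp these medians were 143, 31.5 and 0 UMIs.

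The promoters of Camp, Ngp, Ltf and Lcn2, genes of specific granules with more UMIs per cell in the Camp-Ngp range, are shown with that of Retnlg. The granule factor C/EBP-epsilon, the product of Cebpe, belongs to a family that binds palindromes such as TTGCGCAA. The form TTGCNNAA is looser and is no palindrome itself, since its reverse reads TTNNGCAA. The letters are those of RefSeq on GRCm38.p6 (the assembly also called mm10), from 250 bases before to 50 bases after the transcript start, in the direction of transcription. Capitals mark TTGCNNAA on either strand, a motif chosen after matches had been seen.
Camp: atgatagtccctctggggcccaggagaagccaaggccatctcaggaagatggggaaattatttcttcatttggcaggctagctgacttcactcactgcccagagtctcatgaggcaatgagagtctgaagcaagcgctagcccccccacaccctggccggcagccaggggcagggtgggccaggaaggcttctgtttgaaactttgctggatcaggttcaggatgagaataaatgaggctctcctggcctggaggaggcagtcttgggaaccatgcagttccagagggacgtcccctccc
Ngp: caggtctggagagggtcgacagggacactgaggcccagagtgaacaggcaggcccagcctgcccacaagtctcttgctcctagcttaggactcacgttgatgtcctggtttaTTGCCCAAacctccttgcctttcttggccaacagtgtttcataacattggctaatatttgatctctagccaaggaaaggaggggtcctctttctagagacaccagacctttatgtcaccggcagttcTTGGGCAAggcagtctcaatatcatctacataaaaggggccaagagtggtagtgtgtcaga
Ltf: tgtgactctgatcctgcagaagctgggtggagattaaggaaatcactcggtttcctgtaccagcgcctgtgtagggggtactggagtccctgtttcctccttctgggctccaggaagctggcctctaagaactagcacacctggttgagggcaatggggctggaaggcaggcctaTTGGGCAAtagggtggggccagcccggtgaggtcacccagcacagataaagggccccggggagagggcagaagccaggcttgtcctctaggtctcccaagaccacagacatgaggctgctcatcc
Lcn2: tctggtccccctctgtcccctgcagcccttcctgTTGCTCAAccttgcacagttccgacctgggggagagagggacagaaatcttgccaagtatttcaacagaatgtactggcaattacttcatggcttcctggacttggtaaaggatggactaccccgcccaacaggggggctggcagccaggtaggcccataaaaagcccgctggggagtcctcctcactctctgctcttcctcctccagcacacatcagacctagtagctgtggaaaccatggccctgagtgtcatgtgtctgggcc
Retnlg: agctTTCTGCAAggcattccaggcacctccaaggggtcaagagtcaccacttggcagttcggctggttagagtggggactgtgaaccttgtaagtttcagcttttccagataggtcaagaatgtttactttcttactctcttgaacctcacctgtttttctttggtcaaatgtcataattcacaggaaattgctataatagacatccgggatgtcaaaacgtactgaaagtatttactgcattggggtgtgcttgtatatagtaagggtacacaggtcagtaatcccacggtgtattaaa
These windows lie at chr9:109849407-109849706 (minus strand, Camp), chr9:110419558-110419857 (plus, Ngp), chr9:111019042-111019341 (plus, Ltf), chr2:32387690-32387989 (minus, Lcn2) and chr16:48872358-48872657 (plus, Retnlg). Ngp held 2 matches, at -138 and -11 from the start, Ltf 1 at -75, Lcn2 1 at -216 and Retnlg 1 at -246, while the Camp window held none. Of all 32851 promoters of this length 10.8% held the motif, so a single match is common, and a match is a description of the letters only. The stricter forms TTGCGCAA, TTNCGCAA and TTGCGAAA occurred in 0.183%, 0.798% and 0.174% of promoters and in none of these 5. The loose form TTNNNNAA occurred in 61.5% of promoters. Over the whole specific granule list with Camp and Ngp, 5 of 14 genes with a promoter (35.7%) held TTGCNNAA. For the mature neutrophil list with Retnlg it was 2 of 18 (11.1%), beside 12.2% of all genes. The specific granule list includes Ngp, Ltf and Lcn2, shown above with matches. Since the motif was chosen after matches had been seen, these shares are no test of either list.

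Primary granule genes were confined, among the members, to the Camp-Ngp range apart from 1 Prss57 UMI in the Retnlg range. Prtn3 had 306 UMIs in the Camp-Ngp range, Elane 270, Mpo 102 and Ms4a3 74, and each had 0 UMIs in both other ranges. Against the floor of 3 counts over the group, Prtn3 was at least 7.27 log2 units and Elane at least 7.09 log2 units higher in the Camp-Ngp range than in the Retnlg range. A gene counted as measured from 30 UMIs summed over the groups compared, and as higher or lower at 2-fold. Nkg7, a granule membrane gene also of cytotoxic lymphocytes, had 23 UMIs in the Camp-Ngp range and 0 in both other ranges. All 5 measured genes of the 7 listed were higher, while 12.8% of all 1286 measured genes were higher and 30.9% lower. Without the mixed barcodes all 5 were higher too, where 28% of 886 measured genes were higher and 37.4% lower.

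The Elane UMIs came from 3 cells of 20713, 12509 and 11672 UMIs, none of them a mixed barcode by markers or score. They carried 140, 73 and 57 Elane UMIs, 194, 61 and 30 Prtn3 UMIs, and 75, 20 and 7 Mpo UMIs. In the same order they had 26, 269 and 716 Camp UMIs, 19, 136 and 269 Ngp UMIs, and 5, 25 and 38 Lcn2 UMIs. The cell with the most Elane thus had the least Camp, Ngp and Lcn2 of the 3. Ltf was nearly absent from all of them, with 0, 1 and 0 UMIs. They had 16, 7 and 5 UMIs of Cebpe, the factor needed for specific granules, and 0, 1 and 1 of Gfi1, a repressor of granulocyte precursors.

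Specific granule genes divided. Of the 11 measured genes of the 16 listed, 5 were higher in the Camp-Ngp range, 2 lower and 4 within 2-fold, with a median log2 ratio of 0.94 beside -0.20 over all measured genes. Ltf, the iron-binding lactoferrin, had a median of 17 UMIs per cell in the Camp-Ngp range (0 to 73), 1.5 in the middle range (0 to 8) and 0 in the Retnlg range (0 to 1). Its level was 2763 CPM in the Camp-Ngp range, 726 CPM in the middle range and 9.01 CPM in the Retnlg range. The log2 ratio of the Camp-Ngp range to the Retnlg range was 8.26 (6.40 to 11.3). Ltf had a UMI in 18 of 20 Camp-Ngp cells, 7 of 12 middle and 2 of 69 Retnlg cells, against 0.198% of macrophages at a median of 4716 UMIs.

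Chil3, a chitinase-like lectin, followed the same order with 2728, 386 and 126 CPM over the Camp-Ngp, middle and Retnlg ranges (log2 ratio 4.43, 3.88 to 5.04). It had at least 1 UMI in all 20 Camp-Ngp cells, with a median of 15 (1 to 68). Fcnb, a ficolin, had 36 UMIs in the Camp-Ngp range and 0 in both other ranges. Lcn2, which traps bacterial siderophores, fell less, with medians of 50.5 UMIs per cell in the Camp-Ngp range (5 to 240), 19.5 in the middle (1 to 120) and 5 in the Retnlg range (0 to 57). Its log2 ratio was 1.97 (1.83 to 2.10), and 1.31 (1.17 to 1.45) without the mixed barcodes. The per-cell counts of Lcn2 overlapped between the ranges, whereas those of Ltf overlapped only at 0 and 1 between the outer ranges.

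Mmp8 and Mmp9, the neutrophil collagenase and gelatinase, peaked in the middle range. Mmp8 stood at 191 CPM in the Camp-Ngp range, 1998 CPM in the middle and 631 CPM in the Retnlg range. Mmp9 stood at 403, 2452 and 987 CPM in the same order. Their log2 ratios of the Camp-Ngp to the Retnlg range were -1.72 (-2.36 to -1.13) and -1.29 (-1.73 to -0.87). Mmp9 had a median of 9 UMIs per cell in the middle range (4 to 14), and all 12 cells carried it, beside medians of 2.5 in the Camp-Ngp range (0 to 16) and 2 in the Retnlg range (0 to 10). Olfm4, a granule glycoprotein gene, had too few UMIs to count as measured between the outer ranges. It had 0 UMIs in the Camp-Ngp range and 5 UMIs (22.5 CPM) in the Retnlg range, and stood at 204 CPM in the middle.

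**Figure D2:**
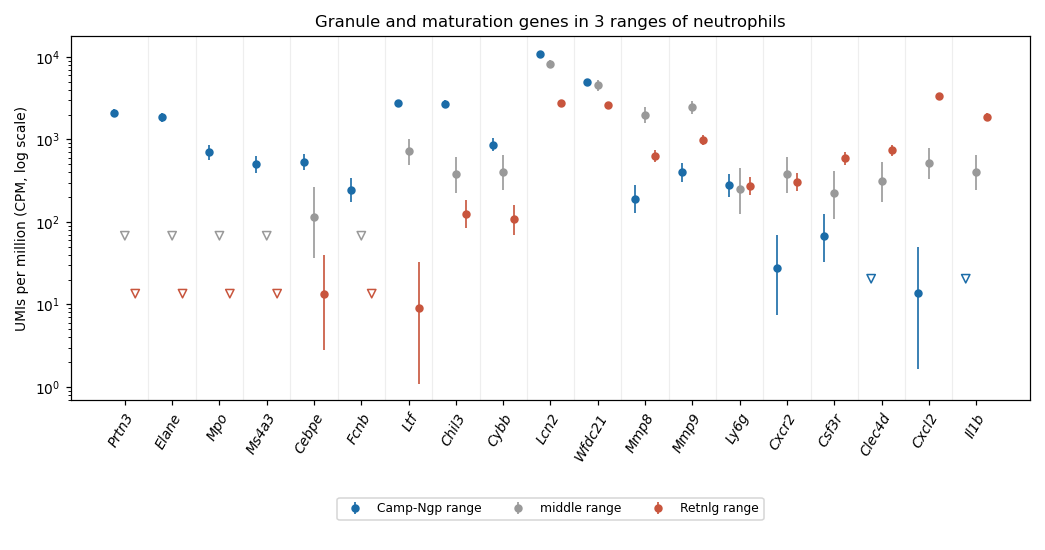
Summed level of 19 genes in the 3 ranges, in CPM on a log scale, with 95% Poisson intervals; open triangles stand at the floor of 3 counts for genes with 0 UMIs. Primary granule genes were at 0 outside the Camp-Ngp range, Mmp8 and Mmp9 were highest in the middle range, and Il1b was at 0 in the Camp-Ngp range.

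Genes of mature cells ran the other way. All 20 of 20 listed mature neutrophil genes were measured and lower in the Camp-Ngp range than in the Retnlg range, with a median log2 ratio of -3.53. All 20 were lower too when the mixed barcodes were left out (median -4.02), with every cell weighted equally, and with totals that left out genes above 1% of UMIs. Cxcr2 had 4 UMIs in the Camp-Ngp range (27.4 CPM), 17 in the middle (386 CPM) and 68 in the Retnlg range (306 CPM), a log2 ratio of -3.49 (-5.40 to -2.06). Csf3r had 10 UMIs in the Camp-Ngp range (68.4 CPM), 10 in the middle (227 CPM) and 131 in the Retnlg range (590 CPM), a log2 ratio of -3.11 (-4.20 to -2.19). Wfdc17, a small secreted protein of the whey acidic family, had 2 UMIs in the Camp-Ngp range and 1319 in the Retnlg range (log2 ratio -8.76, -11.8 to -6.91). Ccl6, a chemokine gene, had 1 and 132 UMIs in these ranges.

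Inflammatory genes were lower in the Camp-Ngp range. All 10 measured genes of the 19 listed were lower there, with a median log2 ratio of -4.88. Il1b, which encodes the cytokine interleukin 1 beta, had 0 UMIs in the 20 Camp-Ngp cells, 18 in 2 of the 12 middle cells, and 416 in 55 of the 69 Retnlg cells (median 3 per cell, highest 26). It was at least 6.51 log2 units lower in the Camp-Ngp range, and at least 3.42 log2 units lower with a floor of 1000 genes. That floor left 10 Retnlg cells, of which 7 were mixed barcodes. Cxcl2, a chemokine that attracts neutrophils, had 2, 23 and 743 UMIs over the 3 ranges, with a log2 ratio of -7.94 (-11.0 to -6.08). Ccl4 had 0, 1 and 158 UMIs, and Nfkbia, which encodes an inhibitor of NF-kappa-B, had 22 UMIs in 50% of the Camp-Ngp cells and a log2 ratio of -3.36 (-4.05 to -2.74). Within the Retnlg range these counts were uneven, since Cxcl2 was at 0 in 20 of 69 cells while its highest cell carried 71 UMIs.

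The receptors were lower in the Camp-Ngp range in 14 of 17 measured genes, and 0 were higher. Clec4d, a lectin receptor for fungal and mycobacterial glycolipids, had 0 UMIs in the Camp-Ngp range and 164 in the Retnlg range. Hcar2, the receptor for nicotinic acid, had 0 and 205 UMIs, and Ccrl2, a chemerin-binding receptor, 2 and 125 UMIs. Il1r2, the decoy receptor for interleukin 1, had a log2 ratio of -3.19 (-4.68 to -2.01) and C5ar1, a complement receptor, of -1.81 (-2.68 to -1.03). Cxcr4, which retains neutrophils in bone marrow, did not separate the ranges (log2 ratio -0.26, -1.24 to 0.67). Ly6g did not either (0.03, -0.58 to 0.62), although it is a rule gene, at 280 CPM in the Camp-Ngp range, 250 in the middle and 275 CPM in the Retnlg range.

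Transcription factors and the oxidase showed further splits. Cebpe had 78 UMIs in 17 of 20 Camp-Ngp cells, 5 in 3 middle cells and 3 in 2 of 69 Retnlg cells (log2 ratio 5.30, 3.70 to 7.61). Cebpb, a related factor of later myeloid cells, was lower in the Camp-Ngp range (-1.63, -2.11 to -1.18), and so was Junb (-4.15, -5.38 to -3.14). Of the NADPH oxidase subunits that make superoxide, Cybb was higher in the Camp-Ngp range (3.01, 2.37 to 3.70). Cyba (0.42, 0.16 to 0.69) and Rac2 (0.38, 0.07 to 0.69) were within 2-fold. Of 6 measured oxidase genes 1 was higher, 1 lower and 4 within 2-fold, with and without the mixed barcodes. Their median log2 ratio was 0.57 with these barcodes and -0.02 without them. S100a6 was lower in the Camp-Ngp range (-2.40, -2.63 to -2.17), at 1203 CPM against 8899 in the middle range and 6337 CPM in the Retnlg range. Mixed barcodes held 40.8% of the UMIs of the Retnlg range, and their part in these summed levels was not tested.

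The other lists had few measured genes between the ranges, to be read beside the 12.8% of all measured genes that were higher and the 30.9% that were lower (28% and 37.4% without the mixed barcodes). Gelatinase granule and late genes were lower in the Camp-Ngp range in 7 of 11 and higher in 1 (9 and 0 of 11 without the mixed barcodes), and cystatins and protease inhibitors were lower in 7 of 9 and higher in 1. S100 family genes were lower in 3 of 6 and higher in 1 (2 and 0 of 5 without the mixed barcodes), and glycolysis genes were higher in 2 of 9 and lower in 0. All 4 measured G2/M phase genes were higher, 1 of 2 without the mixed barcodes, and so was the 1 measured S phase gene. Interferon response and lipid mediator genes were lower in 2 of 2 each, cell survival genes in 1 of 2, and ligands of neutrophil receptors were higher in 2 of 4 and lower in 2 (1 and 2 without the mixed barcodes).

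Ribosomal protein genes depended on which barcodes were counted. With all members, 4 of 75 measured genes were higher in the Camp-Ngp range (median log2 ratio 0.50). Without the mixed barcodes 70 of 74 were higher (median 2.14), beside 28% of all measured genes. With every cell weighted equally 53 of 75 were higher. Per cell, the ribosomal share of UMIs had a median of 17.8% in the 3 Elane cells, 6.73% in the other 17 Camp-Ngp cells, 2.25% in the middle and 2.81% in the Retnlg range. Its range was 2.62% to 31.8% in the other Camp-Ngp cells and 1.15% to 32.2% in the Retnlg range, and both maxima came from mixed barcodes. Without the mixed barcodes it was 2.62% to 23.6% over the whole Camp-Ngp range and 1.15% to 14.8% in the Retnlg range. The medians were then 6.73% and 2.65%, and the ranges still overlapped.

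Cell cycle transcripts were seen mainly in the Camp-Ngp range, where depth was also highest. Unthinned, 10 of 20 Camp-Ngp cells, 0 of 12 middle cells and 3 of 69 Retnlg cells had a UMI of Mki67, Top2a or Cdk1, genes of dividing cells. The 3 Retnlg cells included 2 mixed barcodes. Without the mixed barcodes, 8 of 17 Camp-Ngp cells and 1 of 62 Retnlg cells had such a UMI. Of the barcodes set aside for Cd3 UMIs, described below, 8 of 36 in the Camp-Ngp range (22.2%, 10.1 to 39.2) had one. Their median depth was 6305.5 UMIs, beside 6380 in the Camp-Ngp members. In the set-aside Retnlg range 1 of 31 had one. After each cell was thinned to 1000 UMIs, the share was 10% in the Camp-Ngp range (2 of 20, 1.23 to 31.7) and 2.90% in the Retnlg range (2 of 69, 0.353 to 10.1). It was 0 of 12 in the middle range, which allows a share of up to 25%. Macrophages thinned the same way had 8.75% (6.43 to 11.6). Thinning draws UMIs at random, and the expected share over all draws was 16.7% in the Camp-Ngp range and 2.42% in the Retnlg range. Thinned to 2000 UMIs, which left out 2 Camp-Ngp and 32 Retnlg cells, the share was 27.8% (5 of 18, 9.69 to 53.5) in the Camp-Ngp range and 5.41% (2 of 37, 0.661 to 18.2) in the Retnlg range. With so few positive cells the size of the difference is poorly fixed.

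The limit on Cd3 UMIs removed nearly as many neutrophil-like barcodes as the rule kept. Of 189 barcodes that met both minimums, 82 failed the Cd3 limit, 81 of them on that limit alone. These 81 held 73.2% of all Ngp UMIs and 72.6% of all Camp UMIs of the kept barcodes, beside 26.2% and 26.9% in the members. The limit was passed by Cd3d in all 81, with 155 UMIs in total, and 40 of them had a single Cd3 UMI. Other T cell genes were at or near 0 there, with 0 UMIs of Cd3e, 2 of Cd3g, 0 of Trac, 1 of Trbc1 and 0 of Trbc2.

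Taken over both sets, so that no Cd3 limit chose the cells, Cd3d stood at 191 CPM (162 to 223) in 182 barcodes. It was 1.47 CPM (0.400 to 3.76) in 512 macrophages taken without a Cd3 limit and 343 CPM (293 to 401) in 116 cells with at least 2 UMIs of T cell receptor constant genes. In those T cell receptor cells Cd3g stood at 333 CPM and Trbc2, one of the genes that chose them, at 736 CPM, beside 2.46 and 0 CPM in the 182. Thinned to 1000 UMIs, Cd3d had a UMI in 21.4% of the 182 (15.7 to 28.1), in 0 of 509 macrophages (upper bound 0.722%) and in 33.6% of the T cell receptor cells. Each of these shares is from a single random draw, and the expected share over all draws was 19.1% in the 182. By range, Cd3d stood at 170 CPM (132 to 215) in 56 Camp-Ngp barcodes, 330 CPM (226 to 466) in 26 middle and 174 CPM (131 to 227) in 100 Retnlg barcodes. No RefSeq gene overlaps Cd3d, which lies at chr9:44981769-44987052 on GRCm38.p6 between Cd3g and Cd3e. Free RNA, read from droplets of 1 to 20 UMIs, held 12.1 CPM of Cd3d. What the Cd3d counts in these barcodes stand for was not tested.

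**Figure D3:**
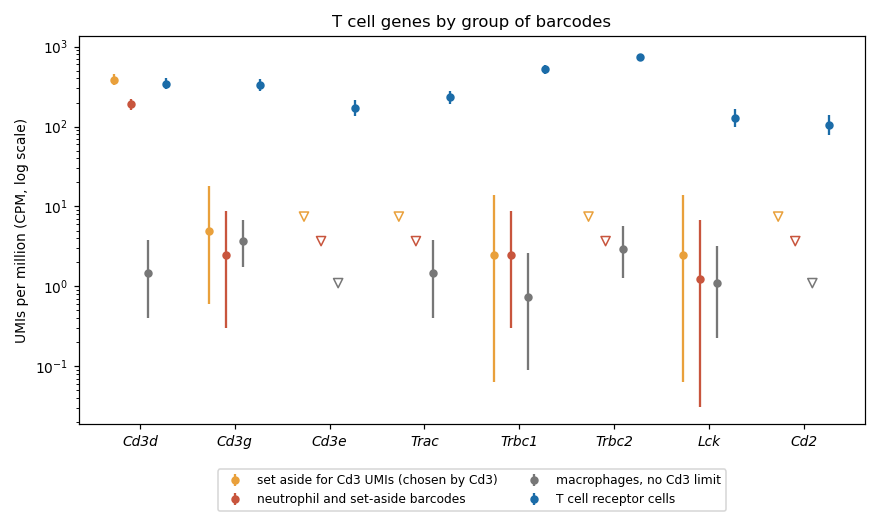
Level of 8 T cell genes in CPM (log scale) with 95% Poisson intervals in the 81 set-aside barcodes, in these together with the 101 members, in 512 macrophages and in 116 T cell receptor cells; open triangles stand at the floor of 3 counts for 0 UMIs. Cd3d stood at 386 CPM in the set-aside barcodes, 191 CPM in the 182 together and 343 CPM in the T cell receptor cells, while the other 7 genes had at most 2 UMIs each in the neutrophil barcodes. Cd3 UMIs chose the set-aside barcodes, and Trac, Trbc1 and Trbc2 chose the T cell receptor cells.

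The same contrast was made in the set-aside barcodes, which the rule did not use. They split into 36 Camp-Ngp, 14 middle and 31 Retnlg barcodes, so the Camp-Ngp share was 44.4% (33.4 to 55.9) beside 19.8% in the members. The set-aside barcodes were deeper, with a median of 3891 UMIs beside 2384 in the members, and the part of depth in this difference was not tested. Of genes measured in both sets, 111 were higher in the Camp-Ngp range of the members and 66 of them were higher in the set-aside barcodes too (59.5% of the 111 and 62.9% of the 105 called there), while 44 were within 2-fold. Of 209 lower genes, 152 were lower there too (72.7% and 68.2%), and 1 gene in each direction was called the opposite way. In the set-aside contrast 14.4% of 898 measured genes were higher and 25.7% lower.

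Ltf had 1201 UMIs in the set-aside Camp-Ngp barcodes and 0 in the set-aside Retnlg barcodes, and Il1b had 0 and 87 UMIs. Cxcr2 (-3.08, -4.07 to -2.17) and Csf3r (-3.48, -4.48 to -2.57) were lower there too. Mmp8 and Mmp9 again peaked in the middle, at 2082 and 2611 CPM. Ly6g was higher in the set-aside Camp-Ngp range (1.67, 0.90 to 2.55). Of ribosomal protein genes 19 of 75 were lower and 0 higher, a share lower that lies near the 25.7% of all measured genes. No primary granule gene reached 30 UMIs there, and Elane had 6 UMIs in 1 set-aside barcode and Mpo 0. Markers of epithelium reached 38.4% of UMIs in a set-aside barcode, so mixed barcodes occur there as well and were not removed, and Amelx stood at 54784 CPM in its Retnlg range.

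**Figure D4:**
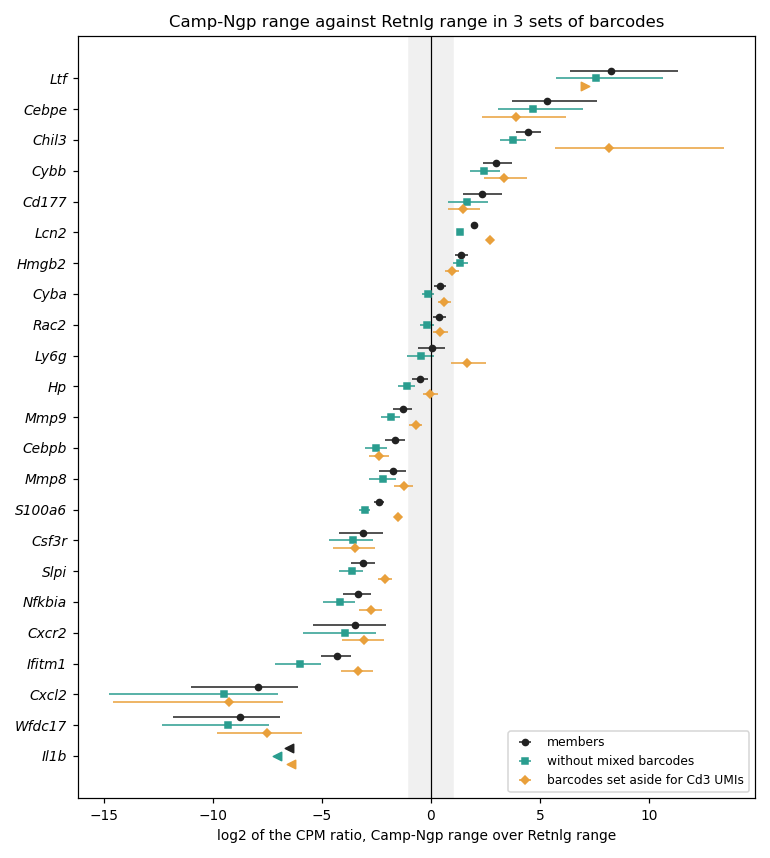
log2 ratio of the Camp-Ngp range over the Retnlg range (x axis) for 23 genes, with 95% intervals, in the members, in the members without the 11 mixed barcodes and in the 81 set-aside barcodes; arrowheads mark bounds for genes with 0 UMIs on a side and the grey band marks less than 2-fold. Ltf, Cebpe, Chil3 and Cybb were higher and Il1b, Cxcl2, Wfdc17 and Cxcr2 lower in all 3 sets, and Ly6g was not.

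Against all 4442 other kept barcodes, 20 of 20 mature neutrophil genes and 6 of 6 measured primary granule genes were higher in the members, although these others include the 81 set-aside barcodes, and 9.53% of 14014 measured genes were higher and 49.6% lower. Since the rule chose the members from the same counts, this is a description only.

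Beside the other myeloid cells of the tissue, the members differed in granule and receptor genes. Monocytes were 72 barcodes with Csf1r and at least 3 UMIs of Ly6c2, Ccr2, F13a1 and Ms4a6c, and macrophages 506 barcodes with at least 10 C1q UMIs, both chosen for low counts of the neutrophil rule genes. Of 2793 measured genes 12.1% were higher and 23.7% lower in neutrophils than in monocytes. The larger part lower turned with the scaling, since totals without the 13 genes above 1% of UMIs gave 502 higher and 343 lower, where the main totals gave 339 and 662, and moved the median of all genes by 0.41. Of 7850 measured genes 9.4% were higher and 35.7% lower than in macrophages, 738 and 2804 genes (1099 and 2060 with those totals, a shift of 0.37).

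Specific granule genes were higher than in monocytes in 9 of 11 measured genes, and gelatinase granule and late genes in 10 of 13, with 0 lower in either list. Lcn2 stood at 6189 CPM in neutrophils, against 23.2 CPM in monocytes and 1.12 CPM in macrophages. Mmp9 stood at 937 CPM in neutrophils, 0 CPM in monocytes and 24.9 CPM in macrophages. G0s2, an inhibitor of fat breakdown, had a log2 ratio of 7.50 (5.63 to 10.5) to monocytes, and Hdc, which makes histamine, of 3.84 (2.82 to 5.08). Mature neutrophil genes were higher than in monocytes in 12 of 20 and lower in 0. Cxcr2 had 89 UMIs in neutrophils against 1 in monocytes, and Csf3r stood at 366 CPM against 29.0 CPM (log2 ratio 3.66, 2.74 to 4.75).

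Primary granule genes did not mark neutrophils alone, and 3 of 5 measured ones were higher than in monocytes and 0 lower. Prtn3 stood at 742 CPM in neutrophils and 389 CPM in monocytes (log2 ratio 0.93, 0.64 to 1.24), and Ctsg at 92.2 and 102 CPM. Prtn3 had a UMI in 4.95% of neutrophils, 15.3% of monocytes and 1.38% of macrophages. Chil3 was within 2-fold of monocytes (0.78, 0.54 to 1.02), and its sign turned (-0.17) with every cell weighted equally.

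S100a4 and Cd74 were lower in neutrophils than in monocytes. S100a4, a calcium-binding protein of motile cells, had 1 UMI in 101 neutrophils and 506 in 72 monocytes (log2 ratio -9.24, -14.5 to -6.76). S100a6 (1.08, 0.96 to 1.20) and S100a11 (1.87, 1.67 to 2.07) were higher than in monocytes. Cd74, the invariant chain of class II molecules, stood at 46.1 CPM in neutrophils and 9087 CPM in monocytes, with a UMI in 11.9% of neutrophils and 72.2% of the barcodes chosen as monocytes. Dendritic cell markers moved with it, at 60.7 CPM in neutrophils and 17243 CPM in those monocytes, up to 9.39% of a barcode, and their part in this difference was not tested. Irf8, a factor of monocyte and dendritic lineages, had 0 UMIs in neutrophils and 32 in monocytes. Fos (-2.71, -3.22 to -2.24) and Cebpb (-1.64, -1.83 to -1.45) were lower than in monocytes, and 8 of 13 measured transcription factors were lower and 2 higher. Ribosomal protein genes were lower in 45 of 77 (75 of 76 without the mixed barcodes, where 13.2% of measured genes were higher and 34.9% lower, and 5 of 77 with totals that left out genes above 1%).

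Inflammatory genes were higher than in monocytes in 3 of 13 measured genes and lower in 3, and lower than in macrophages in 9 of 15 and higher in 2. Of all measured genes 12.1% were higher and 23.7% lower than in monocytes, so 3 of 13 lower lies near that share. Against macrophages these shares were 9.4% and 35.7%. With every cell weighted equally, 5 of 13 were higher and 2 lower than in monocytes. Against macrophages 3 of 15 were then higher and 7 lower. Il1b stood at 1053 CPM in neutrophils, 1387 CPM in monocytes and 275 CPM in macrophages. Its log2 ratio to monocytes was -0.40 (-0.59 to -0.21), and 0.07 without the mixed barcodes, 0.02 with totals that left out genes above 1% and 0.60 with every cell weighted equally. With a floor of 1000 genes, it was -3.79 to monocytes and -1.49 to macrophages. That floor left 26 members, and all 11 mixed barcodes were among them. Tnf did not separate neutrophils from monocytes (-0.13, -0.69 to 0.44) and was lower than in macrophages (-2.57, -2.97 to -2.19). Ccl4 was higher than in monocytes (1.05, 0.63 to 1.50) and lower than in macrophages (-2.97, -3.20 to -2.74). The macrophage chemokine gene Ccl2 had 2 UMIs in neutrophils and 15968 in macrophages.

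Lipid and sugar enzymes differed from macrophages. Alox5ap, which hands arachidonic acid to the leukotriene pathway, was higher in neutrophils (2.63, 2.48 to 2.78), whereas Ltc4s, which makes the cysteinyl leukotrienes, had 1 UMI against 863 in macrophages. Pygl, which breaks down glycogen, was higher than in macrophages (5.23, 4.48 to 6.07) and monocytes (3.03, 2.09 to 4.14). Of 12 measured glycolysis genes 6 were higher than in macrophages and 0 lower. Of 8 measured lipid mediator genes 3 were higher and 4 lower. Over all measured genes 9.4% were higher and 35.7% lower than in macrophages. Of the NADPH oxidase genes, Rac2 was higher than in monocytes (1.69, 1.38 to 2.01) and macrophages (1.95, 1.77 to 2.13), while Cyba was within 2-fold of both (0.21 and 0.01).

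**Figure D5:**
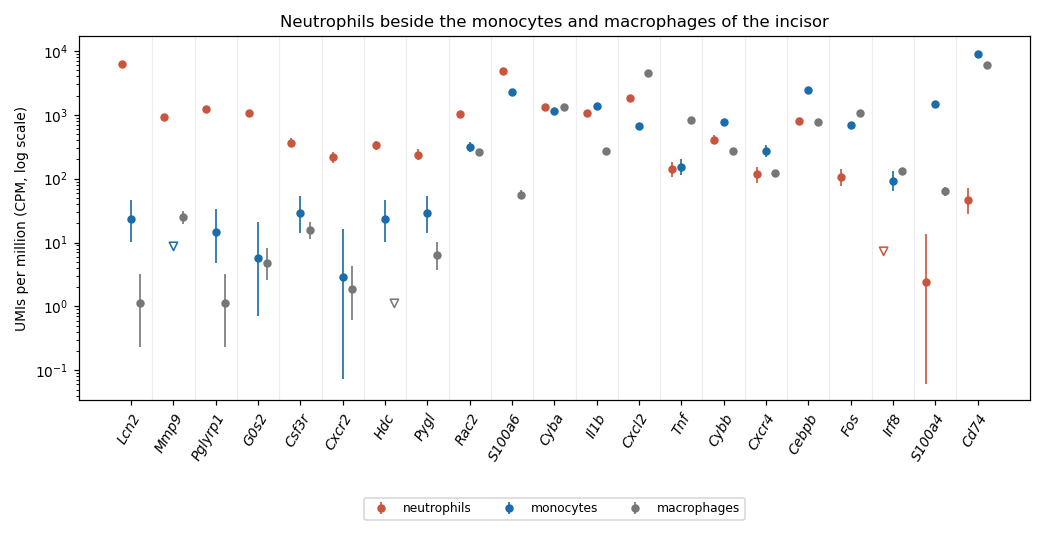
Summed level of 21 genes in CPM (log scale) with 95% Poisson intervals in 101 neutrophils, 72 monocytes and 506 macrophages; open triangles stand at the floor of 3 counts for genes with 0 UMIs. Lcn2, Mmp9 and Cxcr2 were highest in neutrophils, S100a4 and Cd74 in monocytes, and Cxcl2 and Tnf in macrophages.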

How the data were processed

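The authors deposited raw UMI counts per gene and barcode for incisor cells as 1 matrix (31053 genes, 6794880 barcodes, 68931830 UMIs), made with software version 3.0.2 in format version 2 per the file headers. The submitters' processing notes name mm10, R 3.4.1 and Seurat, and the aligner is not given in the sources used here. No sample column was left unused (0). The members, gene lists and rules were chosen with earlier results of these data known. Gene ratios were computed from summed counts scaled to the total (CPM), with exact conditional binomial intervals, Poisson intervals for levels, Clopper-Pearson intervals for shares, and a floor of 3 counts for 0. UMIs count transcript 3′ ends, so levels are not divided by gene length. Analyses used Python 3.11.15, numpy 2.4.6, scipy 1.17.1 and scanpy 1.11.5. The automatic Scrublet threshold called 3 barcodes, so a score above 0.15 (108 barcodes, 2.38%) was used, as an alternative and to mark mixed barcodes. The ratio code was tested on simulated data. Named genes were the 12 highest and 12 lowest per comparison (5 CPM added, at least 100 UMIs, a UMI in 25% or more of the higher side's cells), up to 4 per list, and 20 genes always named; others were chosen after their values were seen, and not all genes found by the rule are printed; 1 listed gene is not reported here. The barcode order gave no map to the 2 lanes. Of 17 gene lists 1 member was missing from the matrix. Alternatives were gene floors of 200 and 1000, stricter limits, other totals and other range limits.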

Additional observations from a re-analysis of the deposited data

Results flagged for a closer look

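Barcodes of 2 kinds outside the members carried the same marker genes. The first are the 81 barcodes set aside by Cd3 UMIs alone, with a median of 31.1% of UMIs from S100a8 and S100a9 beside 22.0% in the members. The second are 28 barcodes of at least 200 and under 500 genes that met every other limit, with a median of 344.5 genes, 1092.5 UMIs and 28.7% of UMIs from S100a8 and S100a9. Of these 28, 4 lay in the Camp-Ngp range, 3 in the middle and 21 in the Retnlg range (75%, 55.1 to 89.3). In droplets of 1 to 20 UMIs, S100a8 made up 2173 CPM and S100a9 2497 CPM. The lowest member share of both genes, 0.205% in a mixed barcode, lay under that of these droplets. Without the mixed barcodes the lowest was 3.89%.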

How the results depend on the processing

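The neutrophil count of 101 became 26 (0.734% of kept barcodes) with a floor of 1000 genes and 182 (4.01%) with no Cd3 limit, and the share became 1.58% with at least 20 granule UMIs. The floor of 1000 genes kept all 11 mixed barcodes, 7 of them among the 10 Retnlg cells left. In the Camp-Ngp against Retnlg contrast (164 higher, 398 lower), higher genes numbered 255 with at least 20 granule UMIs, 316 with cells weighted equally (392 lower), 602 and 37 with at least 10 and 100 UMIs per gene, and 248 without mixed barcodes. Lower genes numbered 160 with a floor of 1000 genes, 258 with at least 20 granule UMIs, 1156 and 116 with at least 10 and 100 UMIs, and 619 with no Cd3 limit. Against monocytes, higher genes numbered 191 with a floor of 1000 genes and 915 and 102 with at least 10 and 100 UMIs; lower genes numbered 343 with totals without genes above 1%, 1523 and 220 with at least 10 and 100 UMIs, and 1097 with no Cd3 limit. Against macrophages, higher genes numbered 1360 and 277 with at least 10 and 100 UMIs, and lower genes 1305 with at least 100. The share of Camp-Ngp cells with cell cycle UMIs was 35.7% with a floor of 1000 genes (a different random draw, with an expected share of 23.9%, beside 16.7% at the floor of 500) and 50% unthinned, and that of Retnlg cells 0% with a floor of 1000 genes (expected share 11.9%), with at least 20 granule UMIs, without doublet scores above 0.15 and without mixed barcodes. Of 444 single-gene values under these alternatives 429 kept their sign. Among genes that differed 2-fold or close to it, Cxcl2 against macrophages was 0.12 with cells weighted equally and Il1b against macrophages -1.49 with a floor of 1000 genes. The mixed barcodes, the Cd3 limit, the expected shares and the macrophage alternatives were chosen after seeing the data. The cause of these moves was not tested, except that a UMI minimum changes the number of genes measured. No paired analysis was possible because both titles stand for 1 matrix. With 1 sample, no replicate could be left out.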
